A study of Homo sapiens with 6 samples.

Results

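Transcript levels of the proteins that cut introns out of pre-mRNA and choose the splice sites were followed in HK-2 cells given a plasmid for the circular RNA circAASS. The genes were chosen by symbol from the table of all genes: the SRSF, HNRNP, SF3A, SF3B, U2AF, SNRPA to SNRPG, PRPF, PTBP, TRA2 and CLK families. Of 35035 genes in the table, 186 carried such a symbol, 105 of these were names of pseudogene copies (the letter P followed by a number) and were dropped, and 81 genes were kept. PTBP1, PTBP2 and PTBP3 end in the same way but were kept because PTBP is among the families. Enough reads for a test were found for 77 of the 81, and the other 4, HNRNPCL1 to HNRNPCL4, had at most 0.129 RPKM in any library.

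HK-2 is an immortalised line of proximal tubular epithelial cells of the human kidney. One group of 3 libraries came from cells transfected with empty vector (genotype label WT), and the other group of 3 from cells transfected with a circAASS overexpression plasmid (genotype label circAASS-overexpressed). The overexpressed RNA was not read from these gene-level values, so the group labels were not checked against it. All 6 cultures had been kept at 1% oxygen for 24 h and reoxygenated for 12 h, per the sample labels, whereas the design text of the series gives 24 h after the treatment. No library from cells at normal oxygen was analysed here, and the labels do not say what other sequence the plasmids carry. Since they do not say whether repeats were separate cultures, the p-values reflect only the variation among the 6 libraries, which could be technical.

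Splicing is carried out by the spliceosome, a set of small nuclear ribonucleoproteins (snRNPs) in which a ring of Sm proteins and a few specific proteins hold each small nuclear RNA. SR proteins bind exons and recruit the spliceosome, CLK kinases phosphorylate SR proteins and thereby set their activity and location, and hnRNPs coat the pre-mRNA and often repress nearby splice sites. Many of these proteins also control the splicing of their own transcripts, producing versions that are degraded. The same proteins influence whether exons are joined backwards into circular RNAs.

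Values are given as deposited, in RPKM, that is reads scaled to gene length and library size. Fold changes are of the circAASS plasmid over empty vector, on the scale of log2(RPKM + 0.1), after trimmed-mean scaling that brings the bulk of genes to the same level in all libraries, and were tested with limma with Benjamini-Hochberg adjustment over all 19349 genes tested (threshold 0.05). As worked out from the RPKM, the libraries held 45148425 to 58179564 reads. A tested member had from 128 reads (SRSF8) to 394069 reads (HNRNPA1) in a library, with a median of 10274. Of markers of the labelled cell type, 9 of 11 had a mean of at least 1 RPKM and ANPEP was below 0.1 in every library. Endothelial markers were below 0.1 RPKM in every library (5 of 5), as were 4 of 6 fibroblast and 4 of 5 leukocyte markers. The exceptions had means, with empty vector and with the plasmid, of 2.81 and 3.2 RPKM (LUM), 1.2 and 1.09 RPKM (COL1A1) and 104 and 88.9 RPKM (the lysosomal CD68). The host gene AASS, whose gene-level value does not separate circular from linear RNA, had means of 1.23 and 0.88 RPKM. It did not pass (log2 fold change -0.369, limma adjusted p = 0.0677), and with RPKM scaled by library size alone it passed as lower (adjusted p = 0.0383). RNAs without a poly(A) tail, of which an mRNA library should hold little, summed to 103 to 125 RPKM with empty vector and to 144 to 292 RPKM with the plasmid, and the mitochondrial share of reads was 8.86% to 9.03% and 9.09% to 10.05%, respectively. Their part in the results below was not tested. In bulk libraries a change in the mixture of cell states and a change of RNA per cell cannot be told apart.

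Most splicing factor transcripts stayed within a narrow band. Of the 77 tested members, 21 were higher with the circAASS plasmid, 3 were lower and 53 did not pass the test. Among all tested genes, 16.0% were higher, 16.3% lower and 32.3% called in either direction, against 27.3%, 3.9% and 31.2% of the members. The share of members called was thus near the background, while the calls lay mostly on the higher side. The sizes were small. The median size of the log2 fold change, sign ignored, was 0.117 among the members and 0.234 among all tested genes. One member, PTBP3 (1.3%), changed by at least 0.5 on the log2 scale, against 19.3% of all tested genes, and none reached 1, against 3.45%. The members' median standard error was 0.0568 against 0.111 for all tested genes, so that small differences were resolved. The background was not matched for level or error, so these sizes do not show that the members were steadier than other genes. The scaled values of the groups did not overlap for 36 members (46.8%), against 47.9% of all tested genes.

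**Figure D1:**
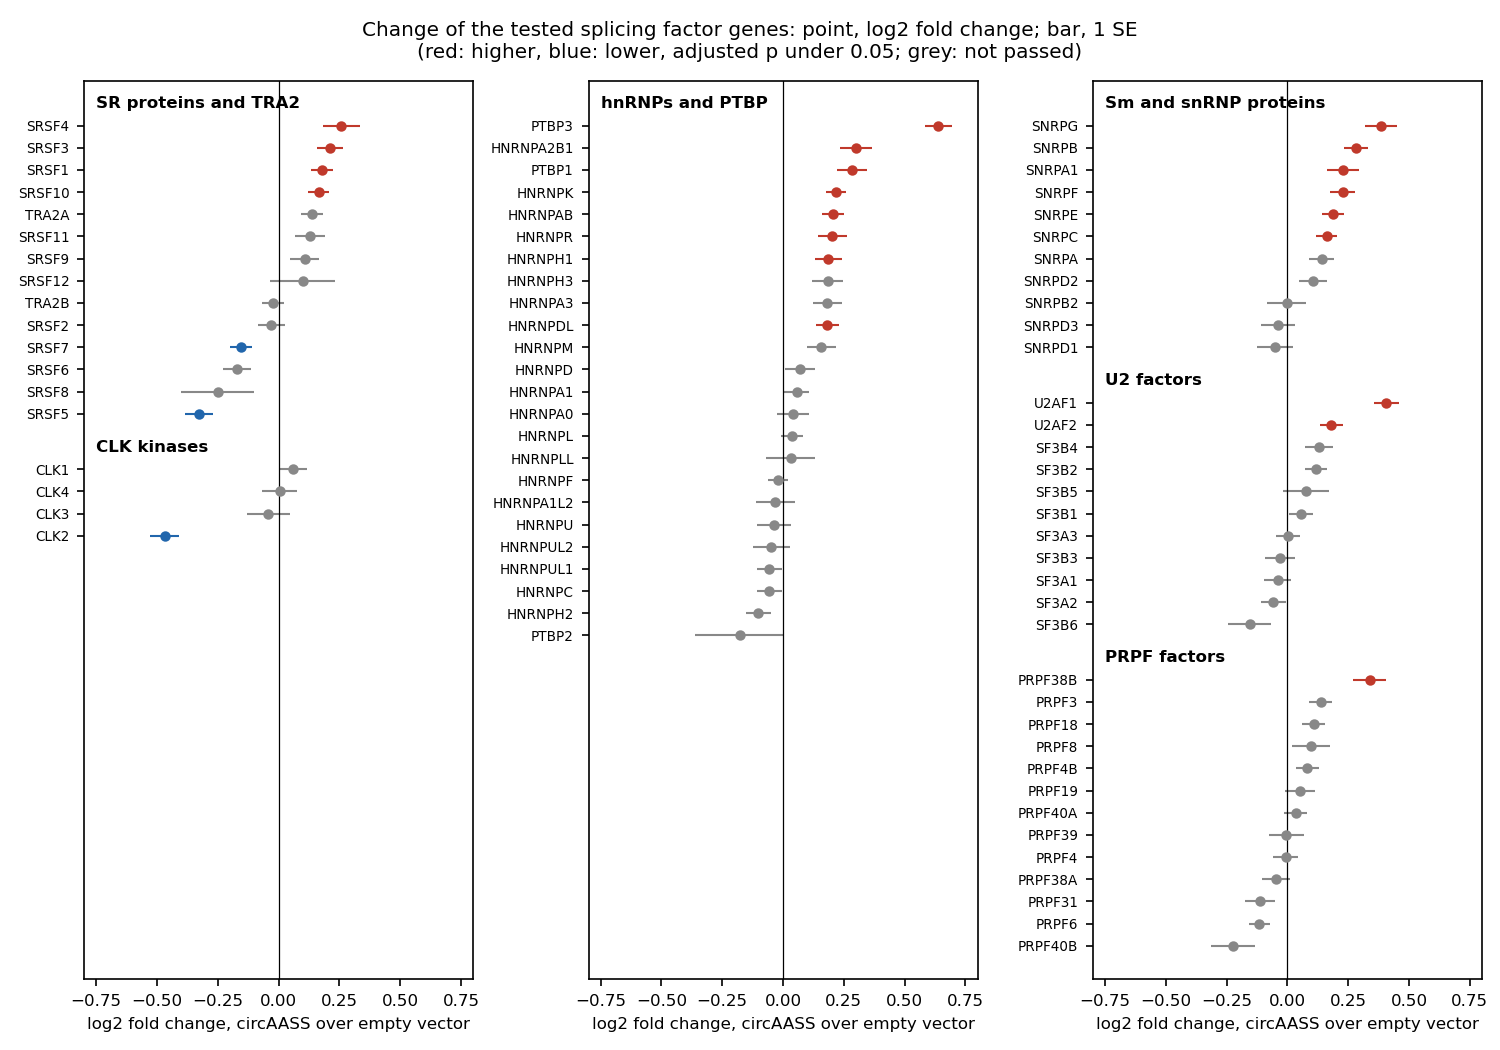
Log2 fold change (x axis, circAASS plasmid over empty vector, bars 1 SE) of each of the 77 tested splicing factor genes, grouped by role. Red points were higher (21), blue lower (3) and grey did not pass the test (53). PTBP3 lies farthest to the right at 0.64 and CLK2 farthest to the left at -0.47.

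Scaling changed the balance of calls. The median log2 fold change was 0.058 for the members and -0.01 for all tested genes. With the RPKM as deposited, scaled by library size alone, these medians were -0.014 and -0.077, 9 members were higher and 8 lower, and the background was 11.2% higher and 20.8% lower. A change of scaling shifts all members by about the same amount, and the calls lost under it are named below. The calls of 9 members passed in every setting and in each of the 6 fits on 5 libraries: PTBP3, U2AF1, SNRPG, PRPF38B, SNRPB, PTBP1 and HNRNPK were higher, and CLK2 and SRSF5 were lower. Without empty vector replicate 1, 2 or 3 the number of higher members was 12, 8 and 8, respectively. The remaining 15 calls were lost in at least 1 setting.

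**Figure D2:**
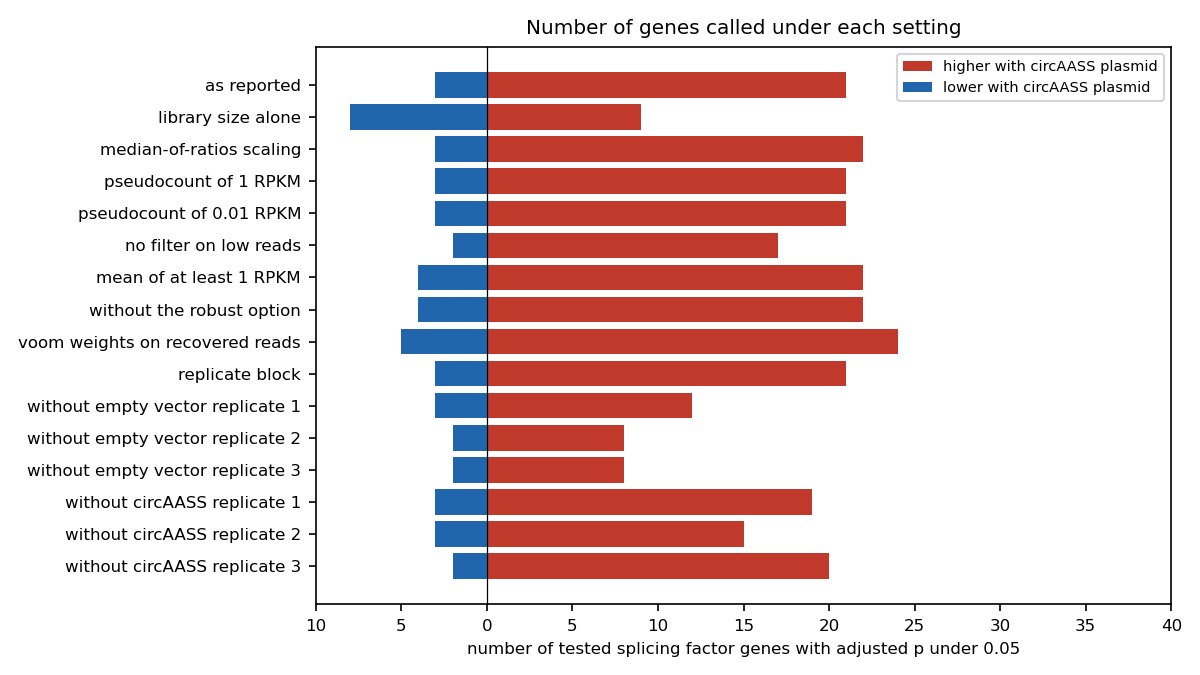
Number of tested splicing factor genes (x axis) called higher (red, to the right) or lower (blue, to the left) with the circAASS plasmid under each setting of the analysis (y axis). The reported setting gives 21 and 3, scaling by library size alone 9 and 8, and the fits without 1 empty-vector library 8 to 12 higher.

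Among the SR proteins and their relatives TRA2A and TRA2B, SRSF5 was lower and several others slightly higher. Of 14 members, 4 were higher (28.6%, against 16.0% of all tested genes), 2 lower (14.3%, against 16.3%) and 8 did not pass the test. Their median log2 fold change was 0.10. SRSF5, an SR protein that binds exonic enhancers, measured 77.5, 74.6 and 78.4 RPKM across the vector controls and 58.9, 60.4 and 55.4 RPKM across the circAASS libraries (GRCh38 chromosome 14, 69726900 to 69772005). The groups lay well apart, with the lowest circAASS value in replicate 3. The mean fell from 76.8 ± 1.99 to 58.2 ± 2.57 RPKM (SD, n = 3 each; log2 fold change of -0.33 with SE 0.0562 and adjusted p = 0.00487 by limma), and all alternatives passed.

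SRSF7, an SR protein with a zinc knuckle that also serves as an adaptor for mRNA export, stood at 35.4, 34.6 and 36.8 RPKM with empty vector and 30.2, 29.5 and 31.6 RPKM in the circAASS libraries (GRCh38 chromosome 2, 38743599 to 38751494). These groups did not overlap either, but the fall was smaller (log2 fold change of -0.15 with SE 0.0449 and adjusted p = 0.0358 by limma). It was lost in each of the 6 fits on 5 libraries (adjusted p up to 0.123) and without the filter on low reads (adjusted p from 0.0115 to 0.123 over the alternatives). SRSF6, also an SR protein, had means of 48.7 ± 3.05 and 41.1 ± 2.18 RPKM and missed the threshold (log2 fold change -0.17, SE 0.0576, limma adjusted p = 0.0564). It passed with library size alone and with 5 other settings, and was named after its values were seen.

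The founding SR protein SRSF1 went from 97.3, 92.7 and 92.3 RPKM to 99.0, 102 and 102 RPKM (GRCh38 chromosome 17, 58003360 to 58007346; log2 fold change of 0.18 with SE 0.0456 and adjusted p = 0.0218 by limma). Other genes of GENCODE 29 cover 60.7% of its exon bases, so reads of these may be counted with it or lost. SRSF3, the smallest SR protein, stood at 33.9, 34.9 and 35.9 RPKM in the vector group and 35.8, 40.7 and 38.8 RPKM in the circAASS group (GRCh38 chromosome 6, 36594353 to 36605600), values that overlap as deposited and separate after scaling (log2 fold change of 0.21 with SE 0.0547 and adjusted p = 0.0235 by limma). SRSF10, which turns into a repressor of splicing when dephosphorylated, stood at 25.5, 25.4 and 26.4 RPKM in the vector group and 26.6, 28.0 and 27.8 RPKM in the circAASS group (GRCh38 chromosome 1, 23964804 to 23980927; log2 fold change of 0.16 with SE 0.043 and adjusted p = 0.0241 by limma). The deposited values of SRSF1 and SRSF10 did not overlap between the groups. SRSF4, a long SR protein, had the largest rise of the group, from 85.3 ± 2.18 to 97.2 ± 7.98 RPKM (GRCh38 chromosome 1, 29147743 to 29181987; log2 fold change of 0.26 with SE 0.076 and adjusted p = 0.0367 by limma), and circAASS replicate 1 was its highest library at 105 RPKM. All 4 rises were lost under library size alone (adjusted p = 0.101 for SRSF1, 0.114 for SRSF3, 0.173 for SRSF10 and 0.062 for SRSF4). They were also lost in between 3 and 5 of the fits on 5 libraries: SRSF1 without empty vector replicate 2 or 3 or circAASS replicate 2 (adjusted p up to 0.0893), SRSF3 without any 1 of the empty-vector libraries or circAASS replicate 3 (up to 0.0771), SRSF10 without any 1 of the libraries but circAASS replicate 1 (up to 0.096), and SRSF4 without any 1 but circAASS replicate 3 (up to 0.114).

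SRSF11, a nuclear SR-related protein and the most abundant gene of this group per length, stood at 135, 124 and 128 RPKM with empty vector and 139, 136 and 127 RPKM in the circAASS libraries (log2 fold change 0.13, SE 0.0628, limma adjusted p = 0.156). The splicing activators TRA2A and TRA2B, which bind GAA-rich exonic enhancers, had log2 fold changes of 0.14 (limma adjusted p = 0.0587) and -0.02 (adjusted p = 0.713). The remaining members SRSF2, SRSF8, SRSF9 and SRSF12 did not pass and ranged from -0.25 to 0.11, with other genes on 36.7% of the exon bases of SRSF2 and 46.2% of those of SRSF9. The summed level of the 14 members overlapped between the groups, at 648.9 to 669.7 RPKM with empty vector and 644.8 to 665.6 RPKM with the circAASS plasmid.

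Of the 4 CLK kinases, CLK2 alone passed the test, as lower (25%). Among all tested genes 16.3% were lower and 32.3% called in either direction, so 1 call among 4 genes is not particular to the family. CLK2 stood at 15.1, 13.8 and 14.5 RPKM with empty vector and at 9.58, 10.4 and 9.71 RPKM with the circAASS plasmid (GRCh38 chromosome 1, 155262868 to 155278491). Every circAASS library was below every empty-vector library. The mean fell from 14.5 ± 0.621 to 9.91 ± 0.459 RPKM (SD, n = 3 each; log2 fold change of -0.47 with SE 0.0602 and adjusted p = 0.00166 by limma), and under library size alone the log2 fold change was -0.54. CLK1, a kinase of the same family, stood at 9.70, 9.30 and 9.35 RPKM in the vector group and 8.83, 9.82 and 9.44 RPKM in the circAASS group with overlapping groups (log2 fold change 0.06, SE 0.0568, limma adjusted p = 0.466). CLK3 and CLK4 had means of 1.41 and 1.30 RPKM and of 3.60 and 3.43 RPKM, with log2 fold changes of -0.04 (SE 0.0887, adjusted p = 0.741) and 0.0039 (SE 0.0718, adjusted p = 0.973). CLK2 had been the most abundant CLK transcript per length in the empty-vector libraries and in the circAASS libraries stood near CLK1.

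The hnRNP and PTBP group held the largest single change, in PTBP3. Of 28 members, 24 were tested. Of these, 8 were higher (33.3%, against 16.0% of all tested genes), none was lower and 16 did not pass. The median log2 fold change was 0.06. With limma none was lower at an unadjusted p under 0.05 either, and none was with voom weights, whereas HNRNPH2 was called lower under library size alone (adjusted p = 0.0247, 109 to 96.9 RPKM, named after its values were seen).

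PTBP1, PTBP2 and PTBP3 are related proteins that bind pyrimidine tracts and mostly repress the exons beside them, PTBP1 being the widely expressed form and PTBP2 the neuronal one. PTBP3 stood at 14.4, 13.6 and 14.6 RPKM with empty vector and at 19.6, 21.2 and 22.4 RPKM with the circAASS plasmid (GRCh38 chromosome 9, 112217716 to 112333667). Each circAASS library lay far above each empty-vector library. The mean rose from 14.2 ± 0.538 to 21.1 ± 1.42 RPKM (SD, n = 3 each; log2 fold change of 0.64 with SE 0.0557 and adjusted p = 0.000433 by limma), and over the alternatives the adjusted p ran from 9.26e-10 to 0.00403. PTBP1 stood at 12.6, 12.1 and 11.6 RPKM in the vector group and 13.3, 13.8 and 15.1 RPKM in the circAASS group (GRCh38 chromosome 19, 797075 to 812327; log2 fold change of 0.28 with SE 0.06 and adjusted p = 0.011 by limma). Its groups did not overlap, and the call held in every setting, at most at an adjusted p of 0.0437. PTBP2 was scarce, at 0.716, 0.633 and 0.801 RPKM in the vector group and 0.445, 0.617 and 0.736 RPKM in the circAASS group, with overlapping groups and a wide error (log2 fold change -0.18, SE 0.182, limma adjusted p = 0.485).

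**Figure D3:**
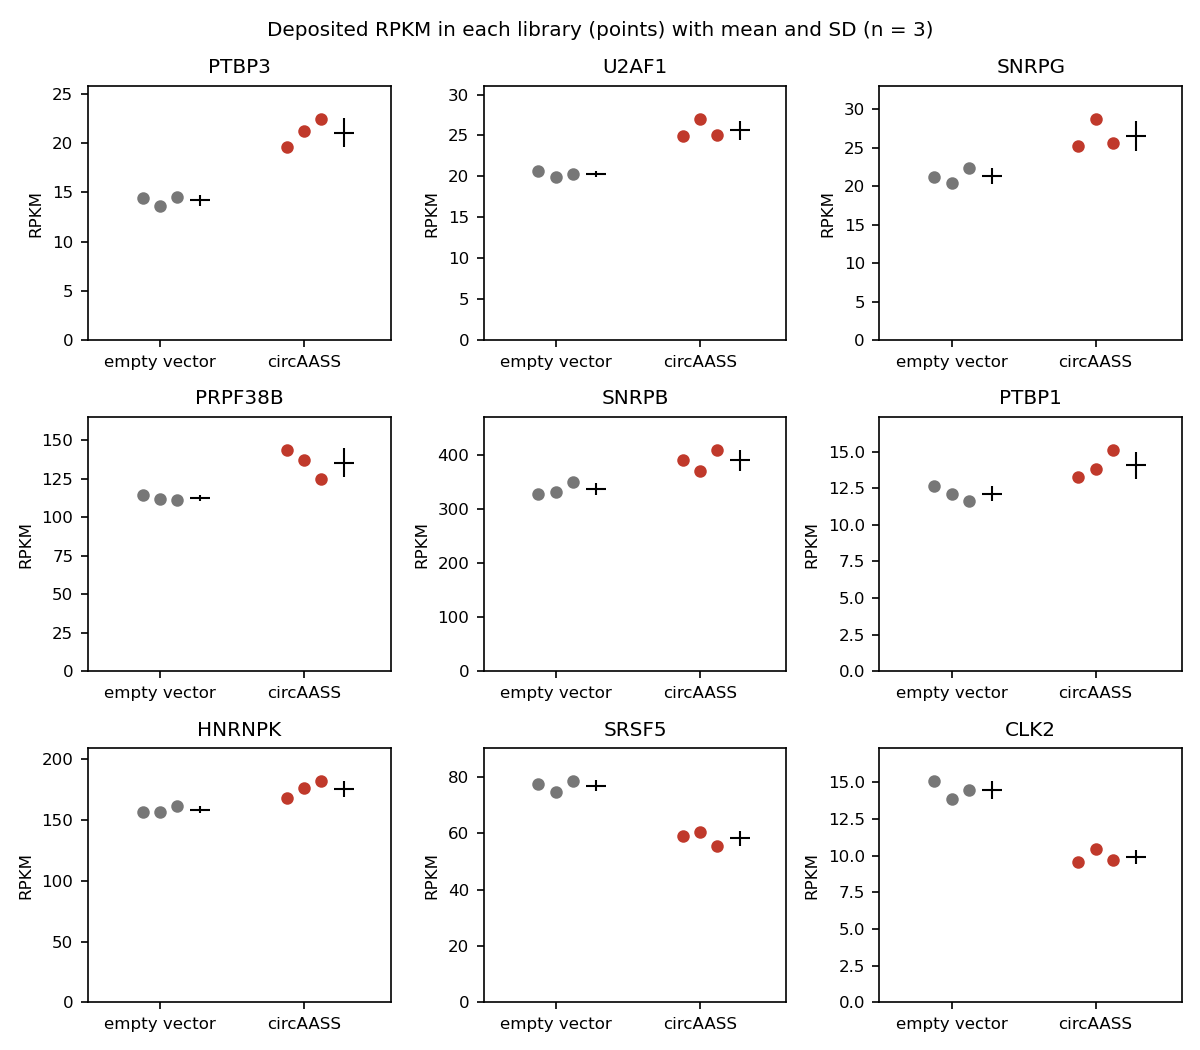
Deposited RPKM (y axis, from 0) of the 9 genes whose call passed in every setting, 1 point per library (3 with empty vector, 3 with the circAASS plasmid), with the mean and SD beside them. In each panel the groups do not overlap, and the mean changes from 14.2 to 21.1 RPKM for PTBP3 and from 14.5 to 9.91 RPKM for CLK2.

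HNRNPK, which binds C-rich RNA through KH domains, stood at 157, 157 and 162 RPKM with empty vector and 168, 176 and 182 RPKM with the circAASS plasmid (GRCh38 chromosome 9, 83968083 to 83980616). The rise was small but steady, with groups that did not overlap (log2 fold change of 0.22 with SE 0.0416 and adjusted p = 0.00715 by limma). HNRNPA2B1, an abundant RNA-binding protein of the nucleus, stood at 595, 538 and 569 RPKM in the vector group and 698, 664 and 630.3 RPKM in the circAASS group (GRCh38 chromosome 7, 26173057 to 26201529; log2 fold change of 0.30 with SE 0.0674 and adjusted p = 0.0137 by limma). Its call was lost without empty vector replicate 2 or 3 (adjusted p up to 0.0605). HNRNPAB, which binds RNA and single-stranded DNA, rose from 215 ± 5.80 to 236 ± 3.24 RPKM (GRCh38 chromosome 5, 178204507 to 178211163; log2 fold change of 0.21 with SE 0.0458 and adjusted p = 0.0133 by limma), a call lost without empty vector replicate 1 or 3 (up to 0.057).

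Further rises were smaller or less steady: HNRNPR, a relative of SYNCRIP (83.4 to 91.2 RPKM, log2 fold change 0.20), HNRNPH1, which binds runs of G (109 to 118, 0.19), and HNRNPDL, a relative of the RNA-decay factor HNRNPD (76.2 to 82.1, 0.18). Their limma adjusted p was 0.0341, 0.036 and 0.0243. All were lost under library size alone (adjusted p = 0.0815, 0.104 and 0.118). HNRNPR and HNRNPH1 were also lost without empty vector replicate 2 or 3 or circAASS replicate 1 or 2 (up to 0.116 and 0.124), and HNRNPDL without any 1 of the empty-vector libraries or circAASS replicate 2 (up to 0.0902). These genes were named after their values were seen.

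HNRNPA1, a repressor of splice sites and the most abundant transcript of all members per length, showed no change that passed the test. It stood at 1322, 1296 and 1335 RPKM with empty vector and 1320.0, 1330.0 and 1257 RPKM in the circAASS libraries, overlapping groups (log2 fold change 0.06, SE 0.0515, limma adjusted p = 0.441). Of the 105 dropped pseudogene names, 69 are copies of HNRNPA1, and these summed to a mean of 68.4 RPKM in the vector group and 67.0 RPKM in the circAASS group, so the split of reads between gene and copies is uncertain. HNRNPC, which binds tracts of U, had means of 111 and 101 RPKM (log2 fold change -0.06, adjusted p = 0.427), and the nuclear scaffold protein HNRNPU had 205 and 189.8 RPKM (-0.04, adjusted p = 0.705). The other HNRNP genes that did not pass ranged from -0.10 (HNRNPH2) to 0.18 (HNRNPH3).

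Among the proteins of the snRNPs, several subunits rose, and 2 of these rises held under library size alone. Of 11 members, 6 were higher (54.5%, against 16.0% of all tested genes), none was lower and 5 did not pass. The median log2 fold change was 0.16. Under library size alone 2 were higher, where 11.2% of all tested genes were. With limma none was lower at an unadjusted p under 0.05, nor with voom weights or library size alone. Their summed level was 780.2 to 826.1 RPKM with empty vector and 857.7 to 890.2 RPKM with the circAASS plasmid, without overlap. SNRPB weighs most in these sums, with means of 337 and 390 RPKM, and 3 of the 11 members had a negative log2 fold change. Within the group, 4 of the 7 Sm ring proteins and 2 of the 4 proteins specific to the U1 or U2 snRNP rose.

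SNRPG, a subunit of the Sm ring, stood at 21.2, 20.4 and 22.4 RPKM with empty vector and 25.2, 28.7 and 25.6 RPKM with the circAASS plasmid (GRCh38 chromosome 2, 70281362 to 70293771; log2 fold change of 0.38 with SE 0.0652 and adjusted p = 0.00473 by limma). SNRPB, the most abundant Sm transcript per length, stood at 328, 332 and 350.4 RPKM in the vector group and 391, 370.4 and 409 RPKM in the circAASS group (GRCh38 chromosome 20, 2461634 to 2470853; log2 fold change of 0.28 with SE 0.0496 and adjusted p = 0.0053 by limma), with an overlapping gene on at least 20% of its exon bases. For both genes the groups did not overlap and the call held in every setting. The ring subunits SNRPF and SNRPE rose from 69.2 ± 3.06 to 76.9 ± 2.48 RPKM (GRCh38 chromosome 12, 95858928 to 95903828; log2 fold change of 0.23 with SE 0.0512 and adjusted p = 0.014) and from 43.0 ± 1.09 to 46.6 ± 2.05 RPKM (GRCh38 chromosome 1, 203861603 to 203870550; log2 fold change of 0.19 with SE 0.0462 and adjusted p = 0.0191), both by limma.

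SNRPC, the U1 protein that helps to bind the start of the intron, stood at 115, 113 and 117 RPKM in the vector group and 122, 120.1 and 124 RPKM in the circAASS group (GRCh38 chromosome 6, 34757406 to 34773794; log2 fold change of 0.16 with SE 0.0418 and adjusted p = 0.0235 by limma). SNRPA1, a U2 protein, stood at a mean of 14.2 ± 0.720 with empty vector and 15.9 ± 1.06 RPKM with the plasmid (GRCh38 chromosome 15, 101281510 to 101295282; log2 fold change of 0.23 with SE 0.0659 and adjusted p = 0.0331 by limma). These 4 smaller rises were lost under library size alone (adjusted p = 0.0516 for SNRPF, 0.119 for SNRPE, 0.14 for SNRPC and 0.112 for SNRPA1). Leaving out an empty-vector library also ended them, replicate 1 or 2 for SNRPF (adjusted p up to 0.0636) and any of the 3 for SNRPE, SNRPC and SNRPA1 (up to 0.0779, 0.104 and 0.117), as did circAASS replicate 2 for SNRPA1. The other ring subunits did not pass the test: SNRPD1 had means of 56.6 and 52.1 RPKM (-0.05, SE 0.0731, limma adjusted p = 0.633), SNRPD3 19.5 and 18.0 (-0.04, adjusted p = 0.705, overlapped on 24.6% of its exon bases) and SNRPD2 82.5 and 84.3 (0.11, adjusted p = 0.202). SNRPA and SNRPB2, of the U1 and the U2 snRNP, did not pass either (0.14 and -0.0036).

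Because 6 of the 11 snRNP genes rose, bases near their starts are shown. RefSeq promoter windows on GRCh38.p14, from 250 bases before to 50 after the first listed start of a gene, were given for 71 of the 81 members and for 10 of the 11 snRNP genes (none for SNRPD1). They were searched on both strands for CCGGAAG, the core letters bound by ETS transcription factors. These letters occurred in 10.7% of the windows of all 27305 genes with one, in 21 of the 71 member windows (29.6%) and in 7 of the 10 snRNP windows. They were found in 5 of the 6 snRNP genes that rose, SNRPF being without them, and in 2 of the 4 with a window that did not pass. The match nearest the start in each of the 7 windows is given here on the strand of the gene, 5′ to 3′, with up to 10 bases on each side and the searched letters in capitals, where CTTCCGG is the same motif on the opposite strand.
SNRPG: ttcatttcttCTTCCGGtccgaggtcg
SNRPB: gtgagctggaCCGGAAGtaggtttcta
SNRPE: ttctttattCCGGAAGttgctctcag
SNRPC: atacgctcttCCGGAAGcaccgacaaa
SNRPA1: cgcgccacgaCTTCCGGcaagaacgcc
SNRPD2: gtccatgcccCTTCCGGatgtaggcag
SNRPB2: ggctacgttgCTTCCGGtgcctggctc
The 5 genes that rose come first, in the order of their p-values, and SNRPD2 and SNRPB2 did not pass the test. The stretches lie at chr2:70293492-70293518, minus strand for SNRPG, chr20:2470814-2470840, minus strand for SNRPB and chr1:203861597-203861622, plus strand for SNRPE. Those of SNRPC and SNRPA1 lie at chr6:34757284-34757310, plus strand, and chr15:101295345-101295371, minus strand. Those of SNRPD2 and SNRPB2 lie at chr19:45692363-45692389, minus strand, and chr20:16729994-16730020, plus strand. SNRPC and SNRPB2 each hold a second match that is not shown. The motif shown began 50, 41, 241, 211, 113, 63 and 22 bases before the first listed RefSeq start, in the order shown. In the GENCODE 29 spans, the capital letters of SNRPG, SNRPB, SNRPE, SNRPD2 and SNRPB2 lie inside the gene. Those of SNRPC and SNRPA1 lie before it. Over all roles, 7 of the 21 members that rose held the letters, against 21 of all 71 members with a window (29.6%). A link between the letters and the rises was not tested. A match describes these letters in the window and is not evidence of a bound factor. Other letters searched on both strands were CCAAT (42.3% of member windows, 35.7% of all), GGGCGG (63.4% and 44.6%), TATAAA (8.45% and 12.0%), AAGATGGC (5.63% and 3.03%) and TGACGTCA (0 of 71, 1.98% of all), none of which contains another.

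Of the factors that recognise the end of the intron for the U2 snRNP, both U2AF subunits rose and no subunit of SF3A or SF3B passed the test. Among all 11 members, 2 were higher (18.2%, near the 16.0% of all tested genes), none lower and 9 did not pass. The median log2 fold change was 0.06. By limma 0 were lower at an unadjusted p under 0.05, and 0 with voom weights. U2AF1, the small subunit that reads the AG at the intron's end, stood at 20.7, 19.9 and 20.3 RPKM with empty vector and 24.9, 27.0 and 25.0 RPKM with the circAASS plasmid (GRCh38 chromosome 21, 43092956 to 43107587). All circAASS libraries were above all empty-vector libraries, and the mean rose from 20.3 ± 0.381 to 25.6 ± 1.16 RPKM (SD, n = 3 each; log2 fold change of 0.41 with SE 0.0529 and adjusted p = 0.00174 by limma). A near-identical gene, U2AF1L5, had means of 3.45 ± 0.1 and 3.75 ± 0.092 RPKM, and the split of reads between the copies is uncertain. U2AF2, the large subunit that binds the pyrimidine tract, stood at 87.8, 84.9 and 82.3 RPKM in the vector group and 90.3, 89.9 and 94.6 RPKM in the circAASS group (GRCh38 chromosome 19, 55654146 to 55674715; log2 fold change of 0.18 with SE 0.0471 and adjusted p = 0.0235 by limma). Its call was lost under library size alone (adjusted p = 0.113) and without empty vector replicate 2 or 3 or circAASS replicate 3 (up to 0.0927).

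The 9 SF3A and SF3B subunits, which hold the U2 snRNP at the branch point, ranged from -0.15 (SF3B6) to 0.13 (SF3B4), with a median log2 fold change of 0.002. SF3B1, the large scaffold subunit, stood at 26.4, 28.2 and 27.4 RPKM in the vector group and 25.5, 28.0 and 27.6 RPKM in the circAASS group, overlapping groups (log2 fold change 0.06, SE 0.0502, limma adjusted p = 0.428). SF3B2 stood at 45.2, 44.4 and 45.4 RPKM in the vector group and 47.1, 46.4 and 45.6 RPKM in the circAASS group (0.12, SE 0.0459, adjusted p = 0.0904), and SF3B6, which contacts the branch point adenosine, at 28.0, 30.1 and 32.4 RPKM in the vector group and 23.2, 29.1 and 25.2 RPKM in the circAASS group (-0.15, SE 0.0885, adjusted p = 0.221). Without circAASS replicate 2, SF3B6 passed as lower (-0.25, adjusted p = 0.0395; adjusted p from 0.0395 to 0.483 over the alternatives). With limma 0 of these 9 passed after adjustment, 1 (SF3B2) had an unadjusted p under 0.05, and 0 passed with voom weights.

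The PRPF factors, a mixed set of tri-snRNP subunits, U1-associated proteins and step factors, had 1 rise. Of 13 members, 1 was higher (7.69%, against 16.0% of all tested genes), none lower and 12 did not pass. Under library size alone 1 was higher and 3 lower. By limma 2 were lower at an unadjusted p under 0.05, and 1 with voom weights. The gene that rose was PRPF38B, a homologue of the yeast splicing factor Prp38, at 114, 112 and 111 RPKM with empty vector and 144, 137 and 125 RPKM with the circAASS plasmid (GRCh38 chromosome 1, 108692323 to 108701803). It was also the most abundant of the group per length, and its circAASS libraries spread more widely than its empty-vector libraries without reaching them (log2 fold change of 0.34 with SE 0.0689 and adjusted p = 0.00952 by limma). Its paralogue PRPF38A had means of 17.8 and 16.4 RPKM (-0.05, adjusted p = 0.551).

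The tri-snRNP subunit PRPF6 stood at 82.4, 85.3 and 84.7 RPKM in the vector group and 73.3, 74.8 and 73.2 RPKM in the circAASS group, groups that did not overlap (log2 fold change -0.12, SE 0.0433, limma adjusted p = 0.0756). It passed as lower under library size alone (adjusted p = 0.0109), as did the tri-snRNP subunit PRPF31 (109 and 96.0 RPKM, adjusted p = 0.197 and 0.043) and the U1-associated PRPF40B (3.63, 4.21 and 3.72 against 3.37, 2.95 and 3.04 RPKM, 0.0998 and 0.0389). Other genes cover 32.0% and 48.7% of the exon bases of the latter pair. PRPF3, a further tri-snRNP subunit, had a log2 fold change of 0.14 (adjusted p = 0.0655, and 0.0382 without circAASS replicate 1, where it passed as higher), the step factor PRPF18 of 0.11 (0.126, overlapped on 48.5% of its exon bases) and the core protein PRPF8, which holds the catalytic centre, of 0.10 (SE 0.0786, 0.387).

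**Figure D4:**
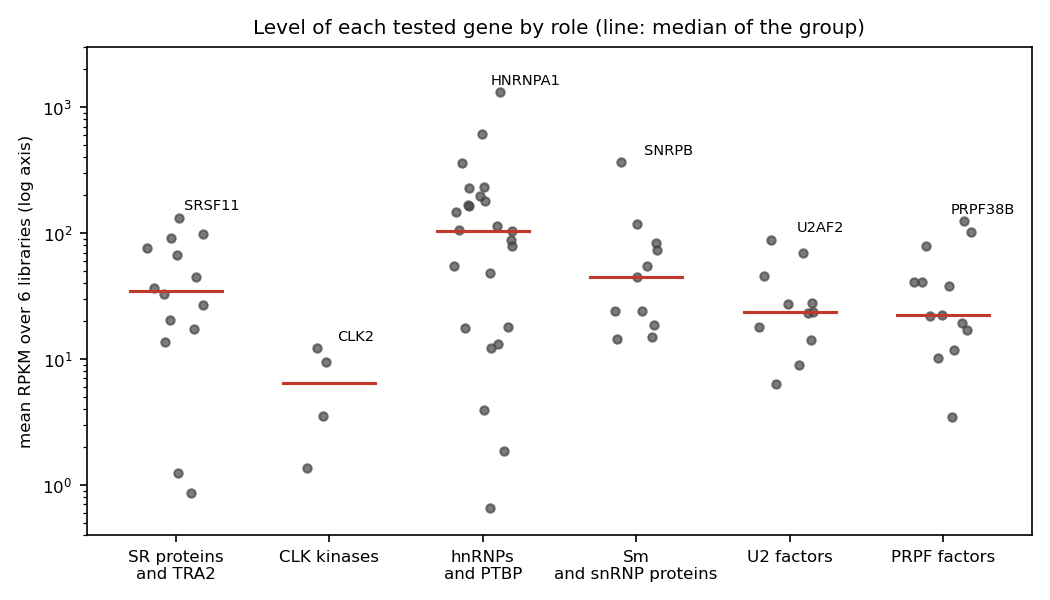
Mean deposited RPKM over the 6 libraries (y axis, log scale) of each tested member by role, with a line at the median of each group. HNRNPA1 stands highest and the CLK kinases lowest as a group, with a median of 6.46 RPKM against 34.8 for the SR proteins and TRA2.

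Per length, the members spanned a wide range of levels, and 66 of the 77 tested had a mean of at least 10 RPKM. SRSF8 and PTBP2 were below 1 RPKM. Across the 77 genes, log2 level and log2 fold change had a Pearson's r of 0.31, as a description: the genes share the same 6 libraries and are not independent.

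Ratios of RPKM between members of a library do not depend on the scaling of that library, and a few pairs, chosen after the values were seen, are given as a description without a test. PTBP3 over PTBP1 was 1.14, 1.12 and 1.26 in the empty-vector libraries against 1.47, 1.54 and 1.49 in the circAASS libraries. U2AF1 over its partner U2AF2 was 0.236, 0.235 and 0.247 in the empty-vector libraries against 0.276, 0.3 and 0.265 in the circAASS libraries. CLK2 over CLK1 was 1.56, 1.49 and 1.55 in the empty-vector libraries against 1.09, 1.06 and 1.03 in the circAASS libraries. In each of these 3 pairs the groups did not overlap. SRSF5 over SRSF1 was 0.797, 0.804 and 0.85 in the empty-vector libraries against 0.594, 0.59 and 0.54 in the circAASS libraries, and SRSF7 over SRSF3 was 1.05, 0.993 and 1.03 in the empty-vector libraries against 0.843, 0.726 and 0.816 in the circAASS libraries. The balance of these SR transcripts was thus lower in each circAASS library than in any empty-vector library. SNRPG over SNRPD1, both subunits of the same ring, was 0.378, 0.355 and 0.398 in the empty-vector libraries against 0.485, 0.507 and 0.536 in the circAASS libraries. HNRNPA2B1 over HNRNPA1 was 0.45, 0.415 and 0.426 in the empty-vector libraries against 0.529, 0.499 and 0.501 in the circAASS libraries.

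**Figure D5:**
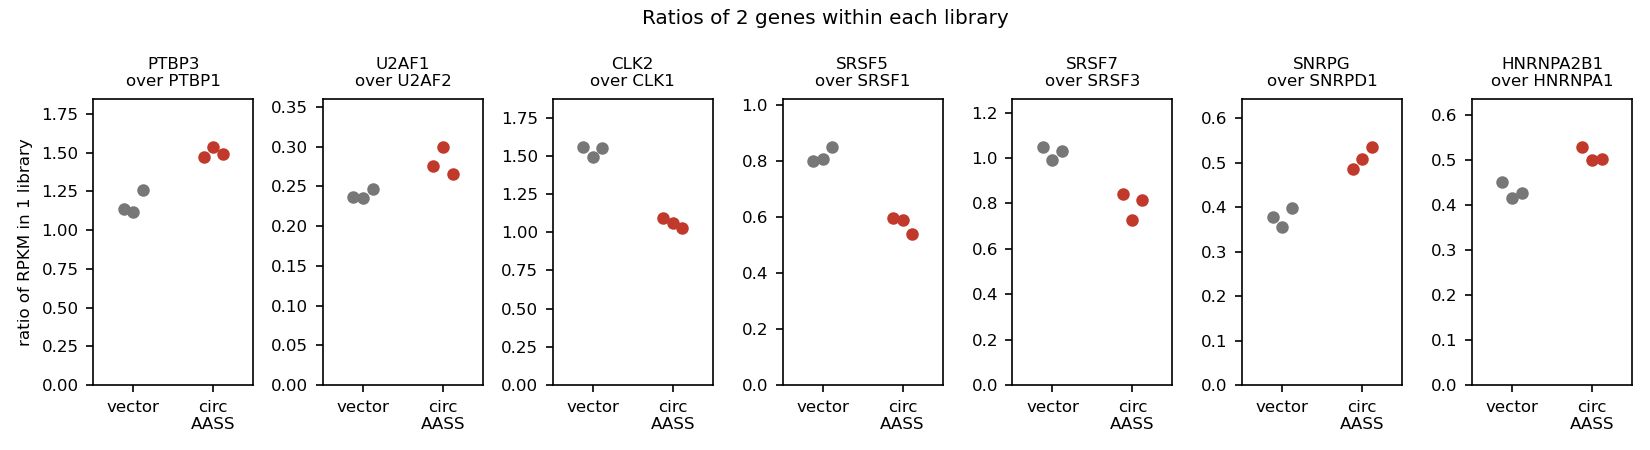
Ratio of the RPKM of a pair of splicing factor genes within each library (y axis, from 0), 1 point per library, 3 with empty vector (grey) and 3 with the circAASS plasmid (red). None of the 7 ratios overlaps between the groups, the mean of CLK2 over CLK1 going from 1.53 to 1.06 and that of SNRPG over SNRPD1 from 0.377 to 0.509. The pairs were chosen after the values were seen, so the lack of overlap is a description and not a test.

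Other genes of the splicing pathway, outside these families, also had more higher than lower calls. Of 170 listed, 164 were tested, 45 were higher, 13 lower and 106 did not pass, with a median log2 fold change of 0.11. These are 27.4% higher and 7.93% lower, against 16.0% and 16.3% of all tested genes. Under library size alone 27 were higher and 21 lower, where 11.2% of all tested genes were higher and 20.8% lower. Other snRNP proteins had 14 higher and 1 lower of 41 (34.1% and 2.44%, median 0.14). Among them were the U2-associated helicases DDX46, which rose from 63.8 to 78.0 RPKM (log2 fold change 0.36), and DDX42, which fell from 45.4 to 32.3 (-0.42). Both passed in every fit that left out a library. Factors of the Prp19 complex and the catalytic steps had 8 higher and 1 lower of 29 (27.6% and 3.45%). They were led by the helicase DHX15 (16.9 to 20.2 RPKM, 0.32) and BUD31 (69.1 to 87.9, 0.42), whose exon bases lie to 46.7% opposite an antisense gene. Of 10 genes listed for the minor spliceosome, 3 were higher (30%) and none lower (also 0 by limma at an unadjusted p under 0.05 and 0 with voom weights). The 3 were ZRSR1 (3.39 to 6.65 RPKM, 1.03), SNRNP48 (13.1 to 18.1, 0.54) and ZRSR2 (41.9 to 50.4, 0.34). ZRSR1 and ZRSR2 are relatives of U2AF1 and close copies of each other, so the split of their reads is uncertain. Whether the ZRSR1 copy makes a protein was not examined.

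SR-related proteins and SR kinases had 4 higher (19%, near the 16.0% of all tested genes) and none lower of 21 (median 0.02), among them SCAF4 and TNPO3, the importer of SR proteins. Under library size alone 0 were higher and 4 lower, where 11.2% of all tested genes were higher and 20.8% lower. By limma 2 of the 21 were lower at an unadjusted p under 0.05, and 3 with voom weights. The exon junction complex and nonsense-mediated decay list had 4 higher and 1 lower of 16 (25% and 6.25%, against 16.0% and 16.3% of all tested genes). In it SMG5 rose from 15.8 to 18.6 RPKM (0.31) and the endonuclease SMG6 fell from 7.02 to 5.01 (-0.41, with other genes on 25.4% of its exon bases). Other regulators of splice site choice had calls in both directions in like numbers, 12 higher and 10 lower of 47 (25.5% and 21.3%, against the same background). In this last list MBNL1 and MBNL2, regulators of developmental splicing, rose from 5.47 to 7.91 (0.60) and from 4.22 to 8.30 RPKM (1.02). The calls of SMG5, SMG6, MBNL1 and MBNL2 passed in all 6 fits on 5 libraries and under library size alone. ZRSR1 and MBNL2 each differed by more, on the log2 scale, than any of the 77 members. These lists were written with earlier results of these data known, and the genes given are among those with the smallest p of each list.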

How the data were processed

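The deposited values were RPKM per gene, made by the authors and per the submitters' processing notes with Trimmomatic 0.36, featureCounts, Subread 1.5.1 and edgeR 3.12.1 on GRCh38. The aligner, the annotation release and whether counting used strand were not given in the sources used here, so reads of overlapping, antisense or near-identical genes are uncertain. Genes of which others cover at least 20% of the exon bases in GENCODE 29 are said to be so where described. All 6 columns matched a library, and 28 gene names had been turned into dates in the table.

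Whole reads at the annotated length were recovered within 0.02 reads for 22385 of 24697 genes (90.6%). For 12621 other genes the smallest length that gave whole reads was used, so their read numbers may be too low. The reads of all genes together made 99.71% to 99.74% of the library totals, which were also worked out from the RPKM. Of read numbers from 1 to 20, 78.6% were even, so mates were mostly counted separately and counting error is larger than the numbers imply. Trimmed-mean factors (30% of ratios, 5% of levels) were 0.9579 to 1.0357.

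Log2(RPKM + 0.1) was tested with limma 3.58.1 (R 4.3.3) with trend and robust options, two-sided, for the 19349 genes that had 10 reads or more, at the median library size, in 3 libraries or more (total 15 or more). With 3 against 3, an exact permutation test cannot go below 0.10, so none was used. The script was tested on simulated data. Tables and figures used Python 3.11, numpy 2.4.6, pandas 2.3.3 and matplotlib 3.10.9. Libraries within groups differed beyond sampling noise, so none was a copy. The chi-square per degree of freedom was 5.79 to 7.8 between empty-vector libraries and 13.5 to 21.96 between circAASS libraries. The fit used 1 variance per gene for both groups.

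The members, the other lists and the tests were chosen with earlier results of these data known. Named genes are the 5 smallest p and the most abundant gene of each role group. Other members described, among them SRSF4 and SNRPA1, fall outside this rule and were chosen with their values known. The result of 1 gene of the other lists is not reported here. Alternatives were 2 other scalings, 2 pseudocounts, 2 filters, no robust option, voom weights on the recovered reads, a replicate block and leaving out each library.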

Additional observations from a re-analysis of the deposited data

How the results depend on the processing

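With scaling by library size alone, 9 members were higher and 8 lower in place of 21 and 3, the median log2 fold change of the members turned from 0.058 to -0.014, and of the other splicing genes 27 were higher and 21 lower in place of 45 and 13. With voom weights, 5 members and 20 other splicing genes were lower. Leaving out 1 library gave 8 to 20 members higher, 2 to 3 lower, a median of 0.039 to 0.073, and 26 to 41 other splicing genes higher and 9 to 16 lower. Without empty vector replicate 1, 2 and 3 the members higher numbered 12, 8 and 8, and without replicate 2 or 3 the other splicing genes higher numbered 26. With the replicate block, 21 members were higher and 3 lower, and 37 and 11 other splicing genes. The block ended the calls of SRSF7, SRSF10, SNRPA1, TNPO3 and BCLAF1 (limma adjusted p = 0.0567, 0.0574, 0.0716, 0.0557 and 0.0522) and left 1 SR-related protein or kinase higher in place of 4. Over all tested genes, same-numbered libraries did not deviate together (correlations -0.005, -0.024 and 0.023, against -0.045 to 0.049 for differently numbered ones). Such correlations cannot exclude a shared batch that is weak or acts on few genes. The cause of the differences between settings was not tested. No other setting moved these counts by over 1.5 times: median-of-ratios scaling, pseudocounts of 1 and 0.01 RPKM, no filter on low reads, a mean of at least 1 RPKM and no robust option. Alternatives chosen after seeing the data, without the PTBP names and without members with 20% or more overlap, each gave 19 members higher and 3 lower. Depth did not limit the members much, as 66 of the 77 had at least 10 RPKM, and SRSF8 and PTBP2 were the scarce ones.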
